A study of Mus musculus with 4 samples.

Results

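The genes described here encode the cytosolic translation initiation factors (eIFs) and elongation factors (eEFs) of the mouse. They were taken by name, as every gene whose symbol begins with Eif or Eef and a number, without the kinases and methyltransferases that modify these factors and without the Y-linked Eif2s3y. Of 28585 genes in the deposited values, 78 had such a name, 11 were left out, and 67 remained. Of the 67 genes, 10 are pseudogenes or retrocopies. The other 57 encode factors or proteins that bind them, apart from Eef1aknmt and Eef1e1, which the rule took by their names. Eef1aknmt encodes an eEF1A methyltransferase and Eef1e1 a part of the multi-tRNA synthetase complex.

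RNA was sequenced from polymorphonuclear myeloid-derived suppressor cells (PMN-MDSCs), neutrophil-like cells that restrain T cells, sorted from pup spleens on postnatal day 7. There were 2 libraries of the genotype Dhps cko and 2 of the genotype Dhps flox, all on a C57BL/6J background. Dhps flox pups carry a floxed Dhps gene in homozygous form, and Dhps cko pups carry the same floxed alleles together with Cre expressed from the Lysm (Lyz2) locus, so both genotypes share the floxed alleles and the deletion is directed to cells of the myeloid lineage. Pups of both sexes were used in the study, and each library held both Xist and Y-linked RNA, that is, RNA of both sexes and so of more than 1 pup. The labels give no sex or number of pups for a library and do not say whether the libraries of a genotype came from separate pups, so p-values measure the spread between these 4 samples, which may be technical in part.

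Translation begins when eIF2 brings the initiator tRNA to the small ribosomal subunit, on which eIF1, eIF1A, eIF3 and eIF5 assemble, while eIF4E, eIF4G and eIF4A bind the capped end of the mRNA. After the start codon is found and the large subunit joins, eEF1A delivers each aminoacyl-tRNA and eEF2 moves the ribosome along. eIF5A helps the ribosome past peptide bonds that form slowly, and works only after deoxyhypusine synthase, the product of Dhps, and deoxyhypusine hydroxylase, the product of Dohh, have turned a lysine of eIF5A into hypusine. Deletion of Dhps therefore acts on an elongation factor at the level of protein, and the question put to these libraries was whether transcripts of the translation factors differed between the genotypes.

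The sequence around the lysine that becomes hypusine is shown first because it ties the deleted enzyme to its substrate, and because it shows how far the 2 eIF5A genes and a pseudogene can be told apart by their reads. The stretches hold 45 coding bases of GENCODE M21 transcripts on GRCm38 (mm10), with the lysine codon, codon 50 of both functional genes, in capitals. The Eif5a stretch lies on the minus strand of chr11:69918016-69919189 and the Eif5a2 stretch on the plus strand of chr3:28782178-28782733, each in 2 coding exons with an intron between. The stretch of the pseudogene Eif5al3-ps lies in its only exon, on the plus strand of chr5:90132355-90132399.
Eif5a: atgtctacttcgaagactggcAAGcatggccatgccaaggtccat
Eif5a2: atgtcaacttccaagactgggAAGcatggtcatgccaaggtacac
Eif5al3-ps: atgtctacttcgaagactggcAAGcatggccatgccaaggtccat
The lysine codon was the same in all 3. Eif5a2 differed from Eif5a at 6 of the 45 bases, and over the aligned coding sequence the functional genes shared 73.2% of 459 bases, with no identical run longer than 14 bases. The pseudogene did not differ from Eif5a in this stretch and shared 95.75% of its 447 bases with it, so reads from these genes may be divided uncertainly between Eif5a and Eif5al3-ps.

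The levels are FPKM, fragment numbers divided by the length of the transcript and by the mapped total of the library, which allow levels of genes of different length to be set side by side. The libraries summed to between 304281 and 319286 FPKM over all genes, and 10611 to 10729 genes reached 1 FPKM in a library. Approximate depths, read from the steps between low values, were 32900000 and 31000000 mapped fragments for Dhps cko and 29900000 and 29600000 for Dhps flox. The defining neutrophil markers were between 160.07 and 28033 FPKM in every library. Markers of other cell types were lower but were at 0 in no library. The summed level of the 5 B cell markers was 61.6 and 64.4 FPKM in Dhps cko and 39.8 and 48.4 FPKM in Dhps flox, that of the 5 T cell markers was 13.7 and 11.1 FPKM against 9.01 and 5.74 FPKM, and that of the 5 monocyte-macrophage markers was 125.0 and 123.0 FPKM against 107.3 and 108.8 FPKM. Erythroid markers, with 105.2 and 135.8 FPKM against 99.0 and 140.2 FPKM, and primary granule markers of early neutrophils, with 81.3 and 54.5 FPKM against 46.3 and 56.5 FPKM, overlapped between the genotypes. In such bulk samples fewer cells of a type and less RNA per cell cannot be told apart, and the part of these other cells in the differences described here was not tested. Dhps itself was at 2.38 and 2.59 FPKM in Dhps cko and at 3.57 and 3.11 FPKM in Dhps flox, so its transcripts were lower in both Dhps cko libraries but were still present at 74.4% of the Dhps flox mean.

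The translation factors covered a range from abundant housekeeping transcripts to genes near the limit of detection. Of the 67 genes, 4 had a mean of at least 100 FPKM over the 4 libraries, 30 lay between 10 and 100 FPKM, 23 between 1 and 10 FPKM, and 10 under 1 FPKM. The 4 most abundant were Eef1a1, Eef2, Eif1 and Eif5a. Only Eif1-ps2, a pseudogene, was at 0 in a library. Together the 67 genes held 2101 and 2068 FPKM in the Dhps cko libraries and 2012 and 2025 FPKM in the Dhps flox libraries, which was between 0.637% and 0.668% of the sum of a library. The plot of levels in each library orders the genes by role.

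**Figure D1:**
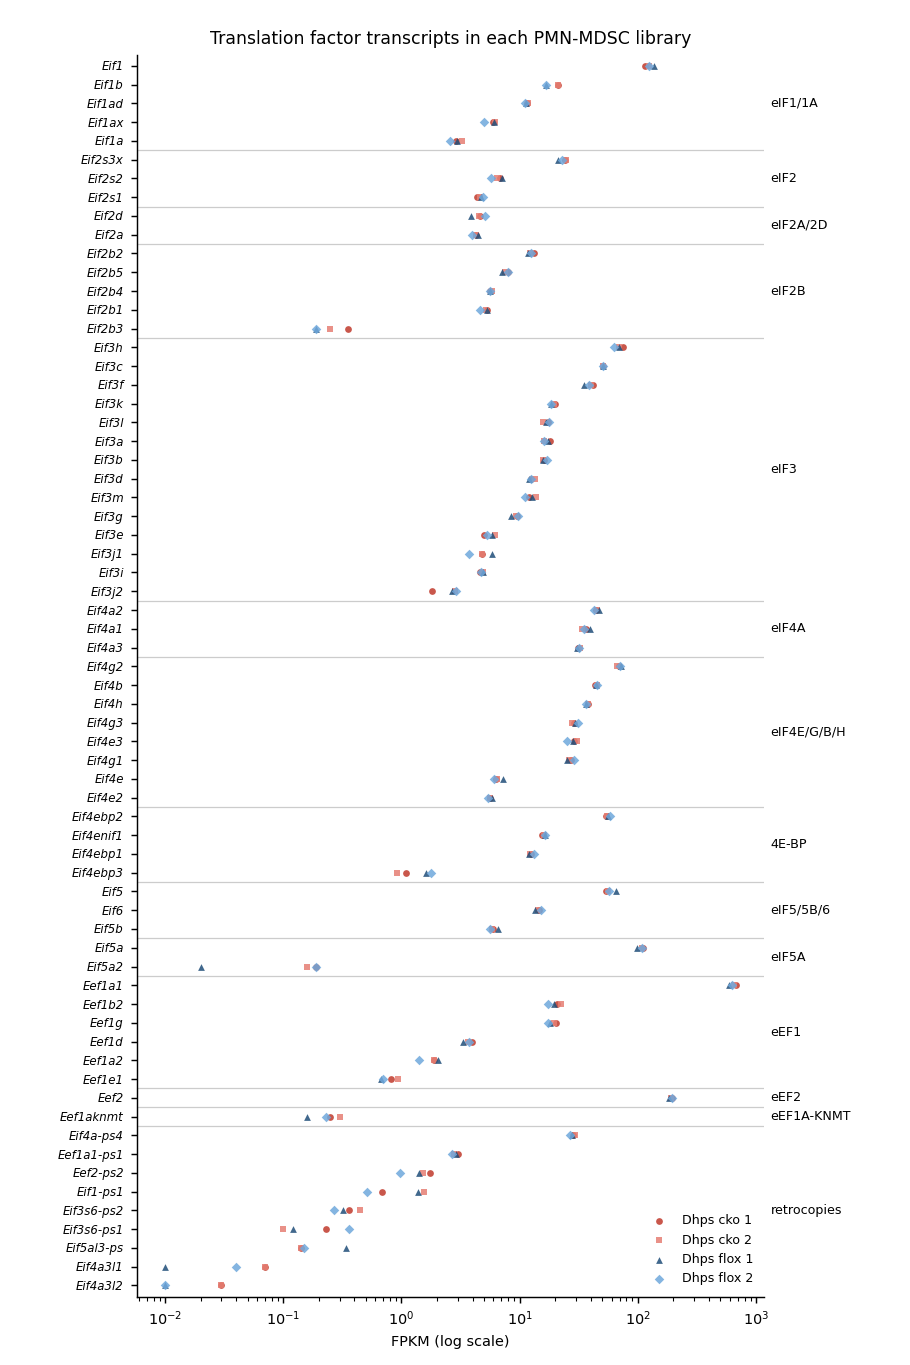
Level of each translation factor gene in the 2 Dhps cko libraries (red) and the 2 Dhps flox libraries (blue), in FPKM on a log axis, with genes grouped by role. Each point is 1 library, and the points of a gene lie close together down to about 1 FPKM, whereas genes of lower level, such as Eif5a2 with 0.02 FPKM in Dhps flox replicate 1, spread more widely; Eif1-ps2 is not drawn because it was at 0 in a library.

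No translation factor gene passed the adjusted threshold between the genotypes. Differences were tested with limma on log2(FPKM + 0.1), a scale that understates the change of low genes, for genes whose mean reached 0.1 FPKM, with Benjamini-Hochberg adjustment over the 17948 genes that passed and a threshold of 0.05. Of the 67 factor genes 65 passed this filter, and the retrocopies Eif4a3l1 and Eif4a3l2 did not. None of the 65 had an adjusted p under the threshold (lowest adjusted p = 0.482, limma), where 1 of all genes tested did (0.00557%). At an unadjusted p under 0.05 limma listed 4 of the 65, or 6.15%, against 7% of all genes. Of these 4, Eif1b, Eef1b2 and Eef1g were higher in Dhps cko, where 4.72% of all genes were listed as higher, and Eif4ebp3 was lower, where 2.28% were. A count of 4 was therefore no larger a share than among all genes.

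The transcripts of the factors differed little between the genotypes. The median of the absolute log2 fold change was 0.08 over the 65 factor genes and 0.14 over all genes tested, but among genes whose mean reached 10 FPKM it was 0.07 over the factors and 0.07 over all, so at that level it was no smaller for the factors. The median absolute log2 difference between replicates was 0.06 in Dhps cko and 0.13 in Dhps flox for the factors, so the median difference between genotypes lay between those of the 2 pairs of replicates. The 95% interval of limma lay wholly within a log2 fold change of 0.5 in either direction for 51 of the 65 (78.5%), against 39.6% of all genes. Since abundant genes have narrower intervals, the same was counted at a mean of at least 10 FPKM, where it held for 34 of 34 factor genes and for 93.1% of the 3759 genes of that level.

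**Figure D2:**
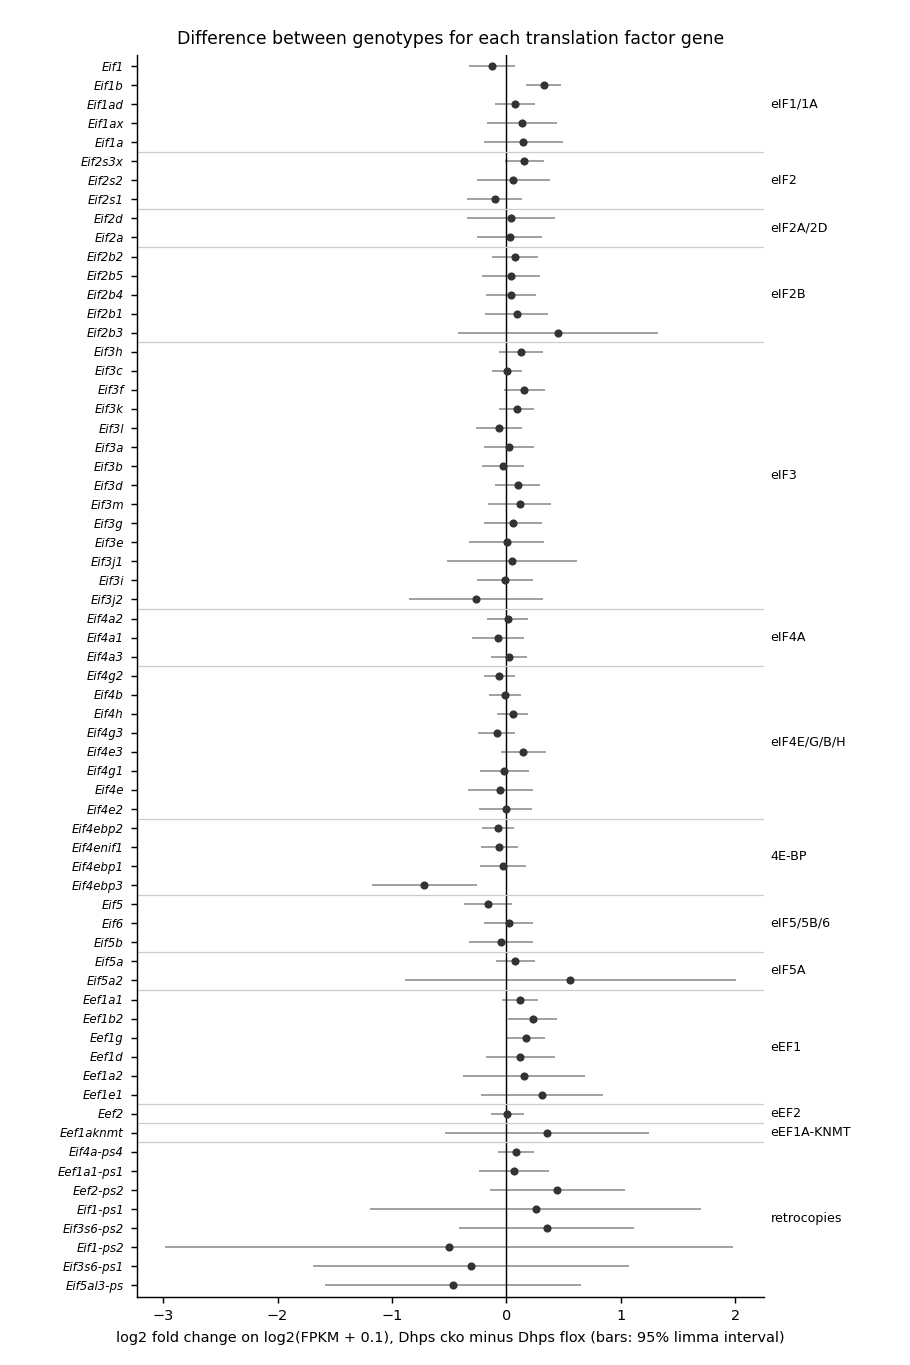
Log2 fold change of each of the 65 factor genes tested, Dhps cko minus Dhps flox on the log2(FPKM + 0.1) scale (x axis), with bars for the 95% interval of limma. Most points lie near 0 with bars that cross it, Eif1b at 0.33 and Eif4ebp3 at -0.72 have bars to 1 side of 0, as do Eef1b2 and Eef1g by a small margin, and the widest bars belong to genes of low level, such as Eif1-ps2, Eif5a2 and Eif1-ps1.

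More factor genes were higher than lower in Dhps cko. The log2 fold change was above 0 for 43 of 65 factor genes (66.2%) and for 52.2% of all genes, and the medians were 0.04 and 0.01. Among the 57 factor genes whose mean reached 1 FPKM, 38 were higher, as were 5621 of all 10629 genes of that level. The genotypes did not overlap for 27 of the 65, or 41.5%, where 36% of all genes did not. In 19 of these both Dhps cko libraries were higher (20% of all genes), and in 8 both were lower (16% of all genes). When FPKM were rescaled to the same sum in each library (TPM), both sets moved down together. Then 35 of 65 factor genes and 8251 of 17948 genes in all were higher, and the medians were 0.01 and -0.02.

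**Figure D3:**
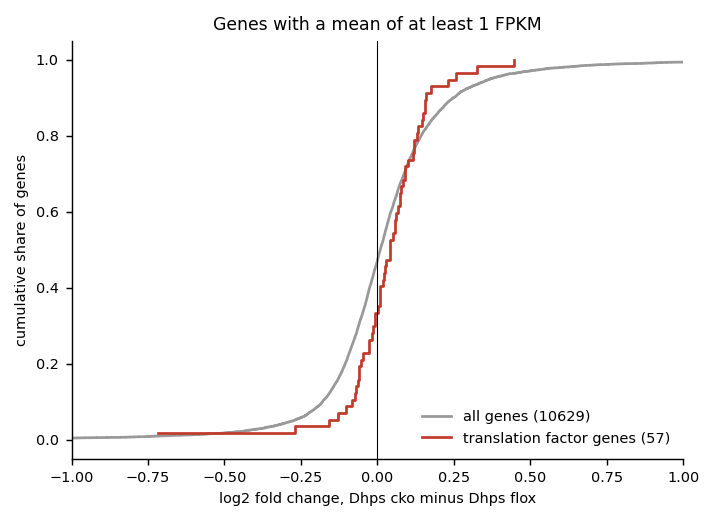
Cumulative share of genes (y axis) by log2 fold change, Dhps cko minus Dhps flox (x axis), for the 57 factor genes (red) and all 10629 genes (grey) whose mean reached 1 FPKM. The red line is steeper than the grey one, crosses the middle at 0.04 rather than 0.01, and starts with Eif4ebp3 at -0.72.

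The elongation factor that carries hypusine was supplied almost wholly by Eif5a. Eif5a was at 110.86 and 107.47 FPKM in Dhps cko and at 98.78 and 108.19 FPKM in Dhps flox. The genotypes overlapped, and only Dhps flox replicate 1 stood below the other 3. Its log2 fold change was 0.08 with a standard error of 0.07 and a 95% interval from -0.09 to 0.25 (adjusted p = 0.839, limma with Benjamini-Hochberg adjustment). It was 0.01 without Dhps flox replicate 1 and 0.14 without Dhps flox replicate 2. Eif5a ranked 304th of all genes by mean level. Eif5a2, a second eIF5A gene with restricted expression in normal tissue, was at 0.19 and 0.16 FPKM in Dhps cko and at 0.02 and 0.19 FPKM in Dhps flox. Eif5a held at least 99.8% of the summed level of both genes in each library. The log2 fold change of Eif5a2 of 0.56 (standard error 0.56, adjusted p = 0.871, limma) rested on Dhps flox replicate 1, where its level was that of about 3 fragments, and without that library it was -0.08. The pseudogene Eif5al3-ps was at 0.14 FPKM in both Dhps cko libraries and at 0.34 and 0.15 FPKM in Dhps flox. Dohh, the hydroxylase that completes hypusine, was at 2.61 and 2.19 FPKM in Dhps cko and at 1.96 and 2.15 FPKM in Dhps flox (log2 fold change 0.21, 95% interval -0.18 to 0.60, adjusted p = 0.818, limma).

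All 6 genes of the eEF1 group were higher in Dhps cko on average. These are the tRNA carriers eEF1A, the subunits of the exchange factor that recharges eEF1A with GTP, and Eef1e1, which carries an eEF1 name but encodes a part of the multi-tRNA synthetase complex. The median log2 fold change of the group was 0.16, against 0.01 over all genes tested, and 4 of the 6 were higher without overlap, as were 20% of all genes. Without Dhps flox replicate 1 the median was 0.24, and without Dhps cko replicate 1 it was 0.15. The summed level of the group was 722 and 693 FPKM in Dhps cko and 636 and 662 FPKM in Dhps flox. None of the 6 passed the adjusted threshold.

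Within the group, Eef1a1, which encodes the eEF1A of most cells, was at 674.53 and 644.83 FPKM in Dhps cko and at 593.15 and 621.51 FPKM in Dhps flox. Both Dhps cko libraries were above both Dhps flox libraries, by a log2 fold change of 0.12 with a standard error of 0.06 and a 95% interval from -0.04 to 0.28 (adjusted p = 0.774, limma). Eef1a1 alone held 30.9% of the FPKM of the 67 genes and ranked 39th of all genes, and its difference had the opposite sign, at -0.02, after quantile normalization. Eef1a2, the eEF1A of muscle and neurons, was at 1.89 and 1.88 FPKM in Dhps cko and at 2.02 and 1.40 FPKM in Dhps flox, less than 1% of the eEF1A transcripts in every library. Its Dhps flox values lay on either side of the Dhps cko values.

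The exchange factor genes followed the same direction. Eef1b2, the catalytic eEF1B subunit, was at 20.87 and 22.45 FPKM in Dhps cko and at 19.45 and 17.45 FPKM in Dhps flox, without overlap (log2 fold change 0.23, standard error 0.08, unadjusted p = 0.039, adjusted p = 0.683, limma). Its unadjusted p was under 0.05 in 6 of 13 other ways of running the test, reached 0.216 without Dhps cko replicate 2, and was 0.0755 with a replicate block. Eef1g, a structural subunit, was at 20.27 and 19.37 FPKM in Dhps cko and at 17.89 and 17.22 FPKM in Dhps flox, also without overlap (log2 fold change 0.17, standard error 0.06, unadjusted p = 0.0438, adjusted p = 0.695, limma). Its unadjusted p was under 0.05 in 5 of the 13, in none of those that left out a library, where it reached 0.165 without Dhps cko replicate 1, and was 0.0926 with a replicate block. The level of the other exchange subunit gene, Eef1d, was 3.96 and 3.65 FPKM in Dhps cko and 3.29 and 3.70 FPKM in Dhps flox, and overlapped. Eef1e1 was at 0.82 and 0.93 FPKM against 0.67 and 0.70 FPKM (log2 fold change 0.31, adjusted p = 0.809, limma). Eef1d and Eef1e1 were chosen for mention after their values were seen, to complete the group.

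Other measures moved in the same direction as the eEF1 genes. Of 77 cytosolic ribosomal protein genes, whose mRNAs share with eEF1 mRNAs a 5′ terminal oligopyrimidine tract that puts them under common translational control, 74 were higher in Dhps cko, 53 without overlap (20% of all genes) and 22 with an unadjusted p under 0.05 (4.72% of all genes). Their median log2 fold change was 0.18. None of the 77 passed the adjusted threshold of limma. Other mRNAs known to carry such a tract were not examined as a list, and those looked at varied. Their log2 fold changes were 0.01 for Eef2, -0.01 for Eif4b, -0.01 for Pabpc1, 0.13 for Eif3h and 0.16 for Eif3f. Short genes also had a higher median than long ones. When genes whose mean reached 1 FPKM were split by exon bases into 5 classes of nearly equal size, the median log2 fold change over all genes was 0.09 in the shortest class and -0.06 in the longest. Over factor genes it was 0.13 in the shortest class, with 6 of 7 higher, and -0.02 in the longest, with 2 of 7 higher. The 3 classes between held 20, 9 and 14 factor genes, with medians of 0.08, -0.01 and 0.02. The part of the tract, of gene length and of the other cell types in the eEF1 difference was not tested.

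**Figure D4:**
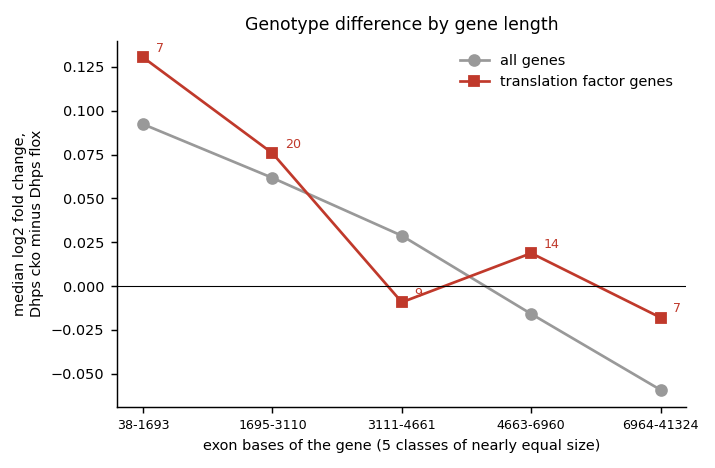
Median log2 fold change, Dhps cko minus Dhps flox (y axis), in 5 classes of gene length given as exon bases (x axis), for all genes whose mean reached 1 FPKM (grey) and the factor genes among them (red, with the number of genes). The grey line runs from 0.09 in the shortest class to -0.06 in the longest, and the red line from 0.13 to -0.02 with 7 to 20 genes in a class.

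Eef2, which encodes the translocase that moves the ribosome by 1 codon, was at 192.58 and 189.63 FPKM in Dhps cko and at 184.81 and 195.08 FPKM in Dhps flox. The Dhps cko values lay between those of Dhps flox, and the log2 fold change was 0.01 with a 95% interval from -0.13 to 0.15 (adjusted p = 0.989, limma). Eef2 was the most abundant factor gene after Eef1a1 and ranked 152nd of all genes.

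Among the genes of start codon selection, Eif1b was the factor gene with the lowest p. Eif1 and Eif1b encode close forms of eIF1, the factor that keeps the scanning ribosome from settling on wrong codons. Eif1b was at 20.90 and 20.99 FPKM in Dhps cko and at 16.57 and 16.81 FPKM in Dhps flox. Both Dhps cko libraries were higher, without overlap. The log2 fold change was 0.33 with a standard error of 0.06 and a 95% interval from 0.17 to 0.48 (unadjusted p = 0.00277, adjusted p = 0.482, limma). The unadjusted p was under 0.05 in 13 of 13 other ways of running the test, and the adjusted p in those ran from 0.3 to 0.962. A long noncoding gene on the opposite strand, D830035M03Rik, covers 12.71% of the exon bases of Eif1b and was between 0 and 0.06 FPKM. With 1125 exon bases Eif1b lies in the shortest length class, where the median log2 fold change over all genes was 0.09. The part of gene length in the Eif1b difference was not tested.

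The more abundant Eif1 was at 114.69 and 123.95 FPKM in Dhps cko and at 137.62 and 123.26 FPKM in Dhps flox, with overlap (log2 fold change -0.13, 95% interval -0.33 to 0.08, adjusted p = 0.798, limma). The sum of both genes was 135.6 and 144.9 FPKM in Dhps cko and 154.2 and 140.1 FPKM in Dhps flox, again with overlap. Eif1b made up 15.4% and 14.5% of this sum in Dhps cko and 10.7% and 12.0% in Dhps flox, so its share was higher in both Dhps cko libraries. The stretches below are shown because the difference between Eif1 and Eif1b can be read only if reads of the genes are told apart. They are 60 aligned coding bases, bases 140 to 199 counted from 1 at the start codon, with the differing bases in capitals. Both lie on the plus strand of GRCm38, Eif1 on chr11:100320774-100320951 and Eif1b on chr9:120494215-120494538, each in 2 coding exons around an intron.
Eif1: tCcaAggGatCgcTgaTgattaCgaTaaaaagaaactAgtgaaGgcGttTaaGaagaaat
Eif1b: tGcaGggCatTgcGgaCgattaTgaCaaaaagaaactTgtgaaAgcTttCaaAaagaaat
The stretches differ at 13 of 60 bases. Over the whole coding sequence 275 of 339 bases were identical (81.12%), and the longest identical run was 25 bases.

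The 3 other genes of the group encode eIF1A forms or a protein with an eIF1A-like domain. Eif1ax, the X-linked form, was at 6.0 and 6.15 FPKM in Dhps cko and at 6.08 and 5.03 FPKM in Dhps flox, and Eif1a at 2.92 and 3.23 FPKM against 2.97 and 2.57 FPKM. Both overlapped between genotypes. Eif1ad, named for its eIF1A-like domain and mentioned here to complete the group, was at 11.63 and 11.84 FPKM in Dhps cko and at 11.27 and 11.03 FPKM in Dhps flox, higher without overlap (log2 fold change 0.07, adjusted p = 0.854, limma).

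The eIF2 genes included the X-linked Eif2s3x, whose level has to be read together with the sex of the pups. Eif2s3x encodes the gamma subunit of eIF2, which binds GTP and the initiator tRNA, and it has a partner on the Y chromosome, Eif2s3y, that is expressed in males only. Eif2s3x was at 24.17 and 24.55 FPKM in Dhps cko and at 21.09 and 22.67 FPKM in Dhps flox, without overlap (log2 fold change 0.16, 95% interval -0.01 to 0.32, adjusted p = 0.743, limma). Eif2s3y was at 4.40 and 5.01 FPKM in Dhps cko and at 10.73 and 9.29 FPKM in Dhps flox, so that it lay at 47.0% of the Dhps flox mean (log2 fold change -1.07, adjusted p = 0.348, limma). The summed gamma subunit level was 28.57 and 29.56 FPKM in Dhps cko and 31.82 and 31.96 FPKM in Dhps flox, lower without overlap.

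The other Y-linked genes examined, Kdm5d, Uty and Ddx3y, lay at 37.0% to 43.9% of their Dhps flox means. Xist, which is expressed from the inactive X chromosome of females, was at 27.54 and 20.27 FPKM in Dhps cko and at 16.25 and 17.17 FPKM in Dhps flox. X-linked genes that escape inactivation, as Eif2s3x does, did not share its direction throughout, with log2 fold changes of 0.06 for Kdm6a, 0.10 for Kdm5c and -0.15 for Ddx3x. Over 543 genes of chromosome X the median was 0.00. None of these genes passed the adjusted threshold (adjusted p of 0.348 for Ddx3y, 0.515 for Kdm5d, 0.568 for Uty and 0.626 for Xist, limma), though the Y-linked genes were lower and Xist was higher in both Dhps cko libraries. For Eif2s3x and Eif2s3y, as for every other gene compared here, genotype and sex cannot be told apart in these libraries.

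The alpha subunit gene Eif2s1, the target of the stress kinases that halt initiation, was at 4.33 and 4.60 FPKM in Dhps cko and at 4.74 and 4.86 FPKM in Dhps flox, slightly lower without overlap (log2 fold change -0.10, 95% interval -0.34 to 0.14, adjusted p = 0.851, limma). The beta subunit gene Eif2s2 overlapped, with 6.86 and 6.46 FPKM in Dhps cko and 7.05 and 5.76 FPKM in Dhps flox. Eif2a and Eif2d, which encode factors that can deliver tRNA to the ribosome without eIF2, lay between 3.90 and 5.07 FPKM and overlapped. Of these, Eif2d was at 4.64 and 4.52 FPKM in Dhps cko and at 3.90 and 5.07 FPKM in Dhps flox, so that Dhps flox replicates spanned both Dhps cko values. The 5 genes of eIF2B, which reloads eIF2 with GTP, were all higher on average (median log2 fold change 0.07). Of these, 2 of 5 were higher without overlap, against 20% of all genes. They were Eif2b4, by a narrow margin (5.63 and 5.89 FPKM against 5.62 and 5.56 FPKM), and Eif2b3, at a low level (0.35 and 0.25 FPKM against 0.19 FPKM in both Dhps flox libraries). The median of the 5 genes was 0.11 without Dhps flox replicate 2 and 0.04 after TPM scaling. None of these passed the adjusted threshold. The most abundant, Eif2b2, was at 13.34 and 12.33 FPKM in Dhps cko and at 11.84 and 12.55 FPKM in Dhps flox. Although the subunits form 1 complex, Eif2b3 had a mean of 0.245 FPKM, 51.1-fold less than Eif2b2, and was named after its level was seen.

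The eIF3 complex, a scaffold that holds the small subunit and the mRNA together, was represented by 14 genes. Of these 10 were higher and 4 lower on average, with a median log2 fold change of 0.04. The median was 0.07 without Dhps flox replicate 1, 0.01 without Dhps flox replicate 2 and 0.0038 after TPM scaling. In 4 of the 14 both Dhps cko libraries were higher without overlap (20% of all genes), in none were both lower (16% of all genes), and no eIF3 gene had an unadjusted p under 0.05. The summed level was 290.1 and 283.3 FPKM in Dhps cko and 275.7 and 271.7 FPKM in Dhps flox. Eif3h, the most abundant, was at 75.28 and 69.50 FPKM in Dhps cko and at 69.22 and 63.07 FPKM in Dhps flox. Its highest Dhps flox value was just under its lowest Dhps cko value (log2 fold change 0.13, 95% interval -0.06 to 0.32, adjusted p = 0.785, limma).

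The eIF3 genes differed 27.1-fold in level between Eif3h and Eif3j2. Eif3j1 and Eif3j2 encode the loosely bound eIF3j subunit. Eif3j1 was at 4.83 FPKM in both Dhps cko libraries and at 5.84 and 3.72 FPKM in Dhps flox, and Eif3j2 was at 1.83 and 2.84 FPKM against 2.67 and 2.87 FPKM. Both overlapped, and the sign of each depended on a single library. Eif3d shares 43.3% of its exon bases with Gm17638 on the opposite strand, and strand use is not given in the sources used here, so its level is uncertain to that extent.

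The helicase genes of the eIF4A family held nearly the same level in both genotypes. Eif4a1 and Eif4a2 encode forms of the helicase that unwinds the 5′ leader of mRNAs, and Eif4a3 encodes a core protein of the exon junction complex. Eif4a1 was at 36.59 and 33.91 FPKM in Dhps cko and at 39.56 and 34.70 FPKM in Dhps flox. Eif4a2 was at 44.62 and 45.25 FPKM against 46.96 and 42.42 FPKM, and Eif4a3 was at 31.03 and 32.35 FPKM against 30.42 and 31.83 FPKM. All 3 overlapped, with 95% intervals of -0.30 to 0.15 for Eif4a1, -0.17 to 0.19 for Eif4a2 and -0.13 to 0.18 for Eif4a3 on the log2 scale. By mean level the highest and the lowest of the 3 genes differed 1.43-fold.

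A processed copy of Eif4a1 was listed at almost the level of its parent. Eif4a-ps4 was at 28.23 and 29.15 FPKM in Dhps cko and at 27.75 and 26.43 FPKM in Dhps flox, higher in both Dhps cko libraries by a small margin (log2 fold change 0.08, 95% interval -0.07 to 0.24, adjusted p = 0.820, limma). The stretches around the only base at which both coding sequences differ are shown because they set what reads can tell apart. The differing base is in capitals, base 534 counted from 1 at the start codon, and the change from Eif4a1 to its copy is G534A. The Eif4a1 stretch lies on the minus strand of chr11:69668704-69669088, in 2 coding exons around an intron, and the copy on the plus strand of chr1:60704435-60704495, in a single exon.
Eif4a1: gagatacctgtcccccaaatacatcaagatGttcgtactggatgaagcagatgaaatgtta
Eif4a-ps4: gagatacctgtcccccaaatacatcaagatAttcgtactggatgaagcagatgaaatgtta
Of 1218 coding bases 1217 were identical (99.92%), with an identical run of 684 bases, so the level of either gene is uncertain and the share of reads that came from each cannot be told from FPKM. The sum of both was 64.8 and 63.1 FPKM in Dhps cko and 67.3 and 61.1 FPKM in Dhps flox, with overlap. Eif4a2, with 78.16% of bases identical to Eif4a1 and runs of at most 20 bases, is told apart more readily.

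The genes of the cap-binding complex lay close to 0 in difference, with 2 of 8 higher and 6 lower, a median of -0.01 on the log2 scale and no unadjusted p under 0.05. Among the cap-binding proteins, Eif4e3 was the main transcript. Eif4e3, an atypical member of the family, was at 28.73 and 30.41 FPKM in Dhps cko and at 28.03 and 25.32 FPKM in Dhps flox, higher without overlap (log2 fold change 0.15, 95% interval -0.05 to 0.35, adjusted p = 0.774, limma). Eif4e, the canonical cap-binding protein, was at 6.30 and 6.46 FPKM against 7.19 and 6.09 FPKM, and Eif4e2, which binds the cap in translational repression, was at 5.59 and 5.61 FPKM against 5.87 and 5.40 FPKM. Eif4e3 held 70.7% and 71.6% of the sum of the 3 genes in Dhps cko and 68.2% and 68.8% in Dhps flox. Of the exon bases of Eif4e3, 14.83% are shared on the same strand with Gm20696, which was between 0.05 and 0.32 FPKM.

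The scaffold genes were ordered alike in every library, with Eif4g2 above Eif4g3 and Eif4g1. Eif4g2, which encodes a form without the eIF4E binding site, was at 69.15 and 66.53 FPKM in Dhps cko and at 71.50 and 70.00 FPKM in Dhps flox, lower without overlap (log2 fold change -0.06, 95% interval -0.20 to 0.08, adjusted p = 0.847, limma). Eif4g3 was at 29.03 and 27.99 FPKM against 29.40 and 31.08 FPKM, also without overlap. Eif4g1, the canonical scaffold, was at 27.03 and 25.98 FPKM against 25.14 and 28.64 FPKM and overlapped. Eif4g3 was above Eif4g1 in each library by less than 5 FPKM.

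All 4 genes of the eIF4E-binding proteins were lower in Dhps cko on average (median log2 fold change -0.07), 3 of them without overlap, where 16% of all genes were lower without overlap. The products of Eif4ebp1, Eif4ebp2 and Eif4ebp3 hold eIF4E away from eIF4G until mTORC1 phosphorylates them. Eif4ebp2, the most abundant, was at 53.52 and 54.37 FPKM in Dhps cko and at 55.54 and 57.74 FPKM in Dhps flox (log2 fold change -0.07, 95% interval -0.21 to 0.07, adjusted p = 0.824, limma). Eif4ebp1 was at 12.59 and 12.31 FPKM against 12.09 and 13.31 FPKM and overlapped. Eif4enif1, which encodes another eIF4E-binding protein, a carrier of eIF4E to the nucleus, and was added to complete the group, was between 15.58 and 15.96 FPKM in Dhps cko and between 16.44 and 16.48 FPKM in Dhps flox.

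Eif4ebp3 had the most negative log2 fold change of the 65 factor genes, but did not pass the adjusted threshold. It was at 1.09 and 0.91 FPKM in Dhps cko and at 1.62 and 1.79 FPKM in Dhps flox, which corresponds to about 27, 21, 36 and 39 fragments in that order. Both Dhps cko libraries were lower (log2 fold change -0.72, standard error 0.18, 95% interval -1.18 to -0.26, unadjusted p = 0.0103, adjusted p = 0.541, limma). With a pseudocount of 1 the log2 fold change was -0.44. The unadjusted p was under 0.05 in 11 of 13 other ways of running the test, and was 0.0541 without Dhps cko replicate 2 and 0.0669 without Dhps flox replicate 2. Eif4ebp3 shares 67.34% of its exon bases on the same strand with Maskbp3, a readthrough transcript that joins Ankhd1 and Eif4ebp3. Maskbp3 was at 5.82 and 6.30 FPKM in Dhps cko and at 5.10 and 5.30 FPKM in Dhps flox, in the opposite direction (log2 fold change 0.22, adjusted p = 0.745, limma). The sum of both was 6.91 and 7.21 FPKM in Dhps cko and 6.72 and 7.09 FPKM in Dhps flox, with overlap. How reads in the shared exons were divided between these genes is not given in the sources used here, so the level of Eif4ebp3 is uncertain.

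**Figure D5:**
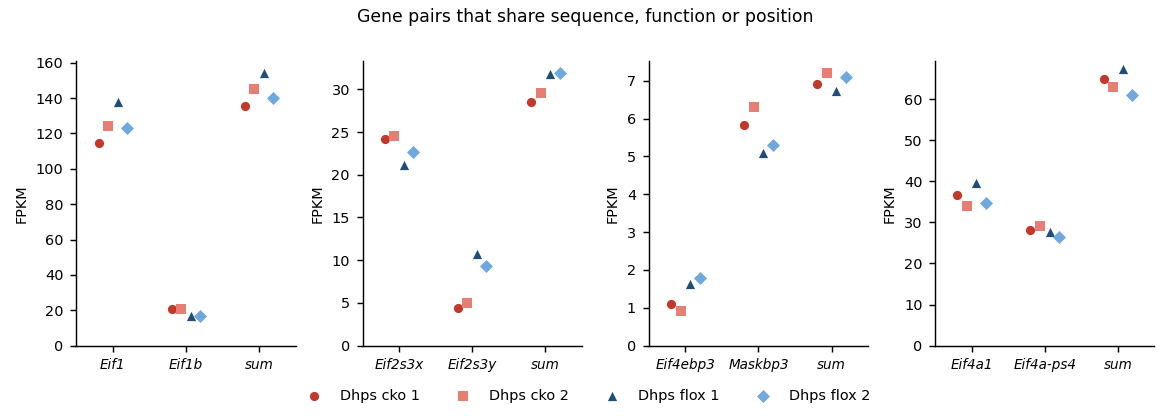
Levels in FPKM (y axis, from 0) of 4 gene pairs and of their sums in each library, Dhps cko in red and Dhps flox in blue. Eif1b, Eif2s3y and Eif4ebp3 separate the genotypes, while their sums with Eif1, Eif2s3x and Maskbp3 lie closer together in proportion. The sum of Eif2s3x and Eif2s3y still separates the genotypes, and the sums with Eif1 and with Maskbp3 overlap. Eif4a1 and Eif4a-ps4 overlap or nearly so, with sums between 61.1 and 67.3 FPKM.

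Of the factors that act as the subunits join, Eif5, whose product makes eIF2 hydrolyse its GTP at the start codon, was at 53.84 and 55.58 FPKM in Dhps cko and at 65.40 and 57.03 FPKM in Dhps flox. Both Dhps cko libraries were lower, and the Dhps flox replicates differed from each other by more than the lower one differed from Dhps cko (log2 fold change -0.16, 95% interval -0.37 to 0.05, adjusted p = 0.774, limma). The log2 fold change was -0.06 without Dhps flox replicate 1 and -0.26 without Dhps flox replicate 2 (unadjusted p = 0.0213, limma), and after TPM scaling it was -0.19 (unadjusted p = 0.0465, limma). Eif5b and Eif6, which act in joining of the large subunit and in keeping it apart, overlapped between the genotypes.

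The 10 pseudogenes and retrocopies were mostly low. Eif4a-ps4 had the highest mean level and Eif4a3l2 the lowest, at 0.02 FPKM, and the median of the 10 was 0.319 FPKM. Of the 8 tested, 5 were higher and 3 lower, with log2 fold changes from -0.50 to 0.45 and no unadjusted p under 0.05. Eef1a1-ps1 shares 97.4% of bases with Eef1a1 and Eif3s6-ps2 shares 97.34% with Eif3e, so values of such copies are uncertain in the same way as that of Eif4a-ps4.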

How the data were processed

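Total RNA of splenic PMN-MDSCs, sorted in the study as CD11b+ Ly6G+ cells with low or no Ly6C, was sequenced in 2 libraries per genotype. The authors filtered reads with Cutadapt 1.9, aligned them with HISAT2 2.2.1 and deposited FPKM per gene, computed with StringTie 2.1.6 and ballgown and written to 2 decimals. The processing notes name mm10, and the annotation and the use of strand are not given in the sources used here. FPKM are relative to the mapped fragments of a library, so a few abundant genes can lower all others.

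From the deposited FPKM, log2(FPKM + 0.1) was tested with limma 3.58.1 in R 4.3.3 (lmFit, eBayes with trend) over 17948 genes whose mean reached 0.1 FPKM, with genotype as the only term, Benjamini-Hochberg adjustment and a threshold of 0.05. The fit was tested on simulated data. Approximate depth was read from the spacing of low values. Between 40.6% and 43.2% of these values lay within 0.15 reads of a whole number, where chance gives 30%, so whole reads were not recovered and no count test was run. With 2 libraries against 2 an exact permutation test cannot give a p below 0.33, so none was used. Coordinates, overlaps and sequences came from GENCODE M21 (GRCm38), in which 28511 of the gene identifiers were found and 74 were not. Python 3.11.15, pandas 2.3.3, numpy 2.4.6 and matplotlib 3.10.9 were used otherwise.

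Members and gene lists were chosen with earlier results of these data known, and the role of 10 pseudogenes and of Eef1aknmt was assigned after the values had arrived. Genes were named by rule: Eif5a, Eif5a2, Dhps and Dohh, the most abundant gene of each role, factor genes with an unadjusted p under 0.05 and no overlap, sets of paralogs, and Eif2s3x with sex-linked genes. Eif4e1b, a listed paralog, was not analysed here. Alternatives changed the pseudocount, the filter, the scaling or the variance model, added a replicate block, or left out a library.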

Additional observations from a re-analysis of the deposited data

How the results depend on the processing

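The count of factor genes with an adjusted p under 0.05 was 0 in the main test and in all 13 alternatives, and 4 factor genes had an unadjusted p under 0.05 in the main test. That count was 2 after quantile normalization and 2 without the variance trend, and ran from 2 to 6 when a library was left out (3 without Dhps cko replicate 1, 2 without Dhps cko replicate 2, 5 without Dhps flox replicate 1 and 6 without Dhps flox replicate 2). With the replicate number as a block it was 2, Eif1b and Eif4ebp3. Same-numbered libraries did not deviate together (r = -0.057 over 10629 genes and -0.52 over the 57 factor genes among them, with 2 pairs), so the numbers are not known to pair the samples. The split of all genes at that threshold was 847 higher and 410 lower, and 628 and 486 after TPM scaling, where factor genes went from 3 and 1 to 2 and 2, with Eif5 added among the lower and Eef1g lost among the higher. Without Dhps cko replicate 1 the split of all genes was 404 and 391, and without Dhps cko replicate 2 it was 442 and 277. All genes with an adjusted p under the threshold numbered 1 in the main test and 0 to 4 in the alternatives.

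The median log2 fold change of the factor genes (0.04) stayed above 0, at 0.036 with a pseudocount of 1, 0.050 without a filter, 0.011 after TPM scaling, 0.030 with size factors and 0.024 after quantile normalization, and from 0.035 to 0.053 when a library was left out. Of 34 named genes, 16 changed sign in at least 1 alternative, in 27 of 441 pairs of gene and alternative, and none of the 441 had an adjusted p under 0.05. The cause was not tested. After TPM scaling Eef2 was at -0.023, Eif4a2 at -0.022 and Eif4a3 at -0.0061. With size factors Eef2 was at -0.0027 and Eif4a2 at -0.0023. After quantile normalization Eef1a1 was at -0.023, Eef2 at -0.088 and Eif4a2 at -0.027. With each library left out in turn, the sign changed without Dhps flox replicate 1 for Eif5a2 (-0.079 to 1.19), Eif2d (-0.14 to 0.23), Eif4a1 (-0.17 to 0.022), Eif4e (-0.17 to 0.066) and Eif4e2 (-0.067 to 0.052), and without Dhps flox replicate 2 for Eef1a2 (-0.095 to 0.40), Eif1ax (-0.0013 to 0.27), Eif2s2 (-0.082 to 0.21), Eif4ebp1 (-0.096 to 0.042) and Eif3j1 (-0.27 to 0.37). It changed without either of 2 libraries for Eef2 (-0.030 to 0.048), Eif4a2 (-0.063 to 0.083), Eif4a3 (-0.0067 to 0.059) and Eif4g1 (-0.11 to 0.076), and without Dhps cko replicate 1 for Eif3j2 (-0.57 to 0.036). Without a change of sign, Eif5a ran from 0.013 to 0.14 and Eif5 from -0.26 to -0.060, the values nearest 0 without Dhps flox replicate 1 and the others without Dhps flox replicate 2. Among the other named genes that kept their sign, some came nearer to 0 by over 1.5 times when a library was left out. Without Dhps cko replicate 1 they were Eif2b2 (0.016), Eif2s1 (-0.060), Eif1 (-0.071) and Eif3h (0.073). Without Dhps cko replicate 2 they were Eif4g2 (-0.033) and Eif1a (0.077). Without Dhps flox replicate 1 they were Eif1 (-0.048), Eif2s3x (0.10), Eif3f (0.094) and Eif2b2 (0.031). Without Dhps flox replicate 2 they were Eef1b2 (0.15), Eif1a (0.047), Eif3h (0.063), Eif4a-ps4 (0.048), Eif4e3 (0.076), Eif4ebp2 (-0.042) and Eif4g3 (-0.044). Eif5a2 gave no value at a mean of at least 1 FPKM, and was at 0.093 with a pseudocount of 1 and at 1.25 with a pseudocount of 0.01. Genes under 1 FPKM are limited by depth, and 2 libraries per genotype limit all tests.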

Other observations

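Of 12 genes that control eIF4F or eEF2, such as the kinases Mtor, Mknk1 and Mknk2 and the poly(A)-binding protein gene Pabpc1, 8 were higher and 4 lower in Dhps cko, the median log2 fold change was 0.02, and the 95% interval of limma lay within 0.5 in either direction for 12 of 12, all of them above 1 FPKM, where it did so for 66.9% of all genes. Pabpc1 was at 88.87 and 93.24 FPKM in Dhps cko and at 91.76 and 91.10 FPKM in Dhps flox. Eef2k, the kinase that inhibits eEF2, was at 5.02 and 4.16 FPKM against 4.69 and 4.54 FPKM. Of the 6 genes of eIF2 alpha kinases and phosphatase subunits, 3 were higher and 3 lower, with a median of -0.04 and 5 of 6 intervals within 0.5. In 3 of the 6 the genotypes did not overlap, against 36% of all genes, and Eif2ak4 had the most negative log2 fold change, -0.23 (adjusted p = 0.820, limma). Ppp1r15b, the constitutive phosphatase subunit, was at 76.06 and 74.33 FPKM in Dhps cko and at 75.99 and 74.19 FPKM in Dhps flox, above every eIF2 subunit gene.

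Of 11 tested genes for methylation of eEF1A or eEF2 and for diphthamide, the modified histidine of eEF2, 7 were higher and 4 lower, with a median of 0.13 and 2 intervals within 0.5, since most lay at low levels. Of 8 tested genes of termination and recycling, 2 were higher and 6 lower, with a median of -0.06, and of 10 mitochondrial translation factors, 5 were higher and 5 lower, with a median of -0.02. No gene of these 5 lists had an unadjusted p under 0.05 in limma. All values in this paragraph and the one before were chosen for mention after they had been seen.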
